A study of Mus musculus with 31 samples.

Results

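Imprinted genes are genes of which mainly 1 parental copy is transcribed, and 47 of them were followed here by gene symbol through 31 mouse neuroblastomas. Of these 47, 45 had a row among the 17306 rows of the expression table, and *Snrpn* and *Rtl1* had none. A row was tested when it was above log2 4 in at least 10 tumors, which 37 of the 45 members and 9322 rows in all were. The other 8 were *Zim1*, *Calcr*, *Klf14*, *Phlda2*, *Slc22a18*, *Ascl2*, *Sfmbt2* and *Rasgrf1*. Among those 8, *Sfmbt2* reached 6.15 and 5.06 on the log2 scale in F1178L tumors 2 and 1, *Slc22a18* reached 5.63 in *MYCN* tumor 22 and *Ascl2* reached 4.74, and the remaining 5 stayed below log2 4 in every tumor. By the parental copy reported in mouse tissues, 18 of the 37 tested members were sorted as paternally and 15 as maternally expressed. The other 4 (*Grb10*, *Gnas*, *Blcap* and *H13*) were sorted as giving transcripts from either copy depending on promoter or tissue. The copy can depend on tissue for members of the first 2 groups too, and it was not measured in these tumors.

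Imprinting is set in the germ line, where egg and sperm place DNA methylation at different control regions, and the embryo keeps those marks while it resets the rest of its genome. A control region usually governs a cluster of neighboring genes, so that a paternally expressed gene and a maternally expressed gene often lie side by side and can share enhancers. Many imprinted genes act in fetal growth, in the placenta and in neuroendocrine cells. Each array row summed up the RNA of both parental copies and of all transcripts its probes match, so that neither the copy nor the promoter in use was measured.

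The tumors came from mice with a human *MYCN* transgene under the tyrosine hydroxylase (*TH*) promoter, which drives it in sympathetic neuroblasts. In 11 tumors this transgene was joined by the F1178L mutation knocked into the endogenous *Alk* receptor gene, in 10 by the R1279Q mutation, and 10 tumors had the transgene with wild-type *Alk*. They are called F1178L, R1279Q and *MYCN* tumors below, and all 31 carry the transgene. Each mutation was studied in a single knock-in line. The sample labels allow 129S2 or 129B6F1 as the strain of every tumor. The study's description of its tumors places 18 of the 21 mutant tumors, 9 in 129B6F1, an F1 of *TH-MYCN* and C57Bl/6 *Alk* mice, and 9 in a mostly 129S2 background. The background of F1178L tumor 36, of R1279Q tumors 17 and 24 and of the *MYCN* tumors was not given there. The mice were 9.14 to 19.14 weeks old for the 6 F1178L tumors in 129B6F1 and 5.14 to 6.29 weeks old for the 4 F1178L tumors in 129S2. They were 16.57 to 27.14 weeks old for the 3 R1279Q tumors in 129B6F1 and 8.29 to 10.71 weeks old for the 5 R1279Q tumors in 129S2. Background therefore went with age, and within 129S2 so did the mutation. Against *MYCN* tumors, whose background, age and sex were not given, mutation, background, age and sex cannot be told apart. Whether any tumors shared a mouse is not given. The tests took the tumors as independent, so that p values may be too small.

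The neuroblastoma label was checked against defining genes of the sympathetic lineage. Over the 31 tumors *Isl1* lay between 11.47 and 13.19, *Th* between 9.69 and 13.96, *Dbh* between 6.36 and 11.61, *Phox2a* between 6.91 and 12.03 and *Gata3* between 4.96 and 10.71, while *Hand2* stayed between 3.10 and 4.56, close to the limit of log2 4. The medians of the arrays ran from 4.22 to 4.66. Genes of other tissues were high in some tumors. Kidney markers averaged 9.68 in *MYCN* tumor 22 and at most 2.44 in any other tumor, and *Ckm*, a skeletal muscle gene, was above log2 6 in F1178L tumors 11 and 38, R1279Q tumors 9 and 18 and *MYCN* tumors 3, 21 and 32. In these bulk samples fewer cells of a type and less RNA per cell cannot be told apart.

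Start regions of 4 members on which the results turn are printed here to show how different the DNA around imprinted promoters is. They are RefSeq sequences of GRCm38.p6, each with 250 bases before and 50 bases after an annotated start, 5′ to 3′ on the gene's strand. Capitals mark TGCCGC, the hexamer bound by ZFP57 when methylated, or its reverse complement GCGGCA. *Asb4* (chr6:5383136-5383435, plus strand) is the member that differed most between genotypes, *Nap1l5* (chr6:58907077-58907376, minus strand) and *Meg3* (chr12:109540746-109541045, plus strand) were higher in both mutant genotypes, and *Grb10* (chr11:12037371-12037670, minus strand) was the member that differed between backgrounds.
Asb4: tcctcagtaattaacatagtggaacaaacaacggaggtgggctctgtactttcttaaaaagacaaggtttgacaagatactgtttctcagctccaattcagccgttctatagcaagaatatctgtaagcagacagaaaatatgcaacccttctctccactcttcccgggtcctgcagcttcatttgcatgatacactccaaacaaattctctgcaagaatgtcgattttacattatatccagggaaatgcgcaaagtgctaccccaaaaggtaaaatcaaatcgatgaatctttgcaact
Nap1l5: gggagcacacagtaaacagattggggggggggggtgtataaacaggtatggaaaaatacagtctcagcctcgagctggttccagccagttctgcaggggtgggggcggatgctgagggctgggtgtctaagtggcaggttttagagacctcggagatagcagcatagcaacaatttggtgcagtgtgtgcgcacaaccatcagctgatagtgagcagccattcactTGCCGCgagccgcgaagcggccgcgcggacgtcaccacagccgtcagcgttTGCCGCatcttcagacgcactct
Meg3: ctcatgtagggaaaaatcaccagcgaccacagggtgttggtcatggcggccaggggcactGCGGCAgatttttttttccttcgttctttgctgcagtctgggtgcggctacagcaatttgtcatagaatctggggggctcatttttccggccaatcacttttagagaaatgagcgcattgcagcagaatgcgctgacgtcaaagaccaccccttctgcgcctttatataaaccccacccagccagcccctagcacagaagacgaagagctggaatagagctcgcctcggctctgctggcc
Grb10: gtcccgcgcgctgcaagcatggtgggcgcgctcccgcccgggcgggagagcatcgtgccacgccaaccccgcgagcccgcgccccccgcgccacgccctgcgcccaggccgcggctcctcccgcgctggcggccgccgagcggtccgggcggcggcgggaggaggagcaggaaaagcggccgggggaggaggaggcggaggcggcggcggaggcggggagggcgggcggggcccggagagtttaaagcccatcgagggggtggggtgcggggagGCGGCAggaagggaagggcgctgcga
The *Asb4* window held 6 CpG and 40.3% G or C with no hexamer, the *Nap1l5* window 17 CpG and 57.7% with 2 hexamers, the *Meg3* window 13 CpG and 53.7% with 1, and the *Grb10* window 45 CpG and 80.0% with 1. The table held 63 such windows for 39 of the 47 members. In 15 of the 63 (23.8%) the hexamer was found on either strand, against 11.6% of all 32851 windows, and the median number of CpG was 16 in the windows of members and 7 in all windows. A match is a description of the letters and not a binding site, and the control regions of many clusters lie outside these windows.

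In F1178L tumors, 15 of the 37 tested members passed the threshold against *MYCN* tumors, and the changes went in both directions. *Asb4*, *Peg10* and *Sgce*, of a single cluster, were lower, as were *Mirg*, *Magel2* and *Tssc4*. *Igf2*, *Meg3*, *Plagl1*, *Nap1l5*, *Slc38a4*, *Inpp5f*, *Impact*, *Gnas* and *Trappc9* were higher. The 9 higher members stand beside 20.1% of all tested rows that were higher in this comparison, and the 6 lower members beside 26.4% that were lower, so that neither count was read as particular to imprinted genes. Of the 18 paternally expressed members 6 were higher and 3 lower, of the 15 maternally expressed members 2 were higher and 3 lower, and of the 4 others 1 was higher and 0 were lower. The median log2 difference was 0.13 for the paternally expressed members, -0.12 for the maternally expressed members and -0.07 over all tested rows.

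In R1279Q tumors, 7 of the 37 members passed the threshold against *MYCN* tumors, 5 higher (*Meg3*, *Nap1l5*, *Slc38a4*, *Inpp5f* and *Blcap*) and 2 lower (*Asb4* and *Sgce*). Over all tested rows 10.8% were higher and 7.04% lower. Of the paternally expressed members 3 were higher and 1 lower, and of the maternally expressed members 1 was higher and 1 lower. The median log2 difference was 0.20 for the paternally and 0.02 for the maternally expressed members, against -0.01 over all tested rows. Both comparisons use the same 10 *MYCN* tumors, and 6 of the 15 members called in F1178L tumors were among the 7 called in R1279Q tumors.

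**Figure D1:**
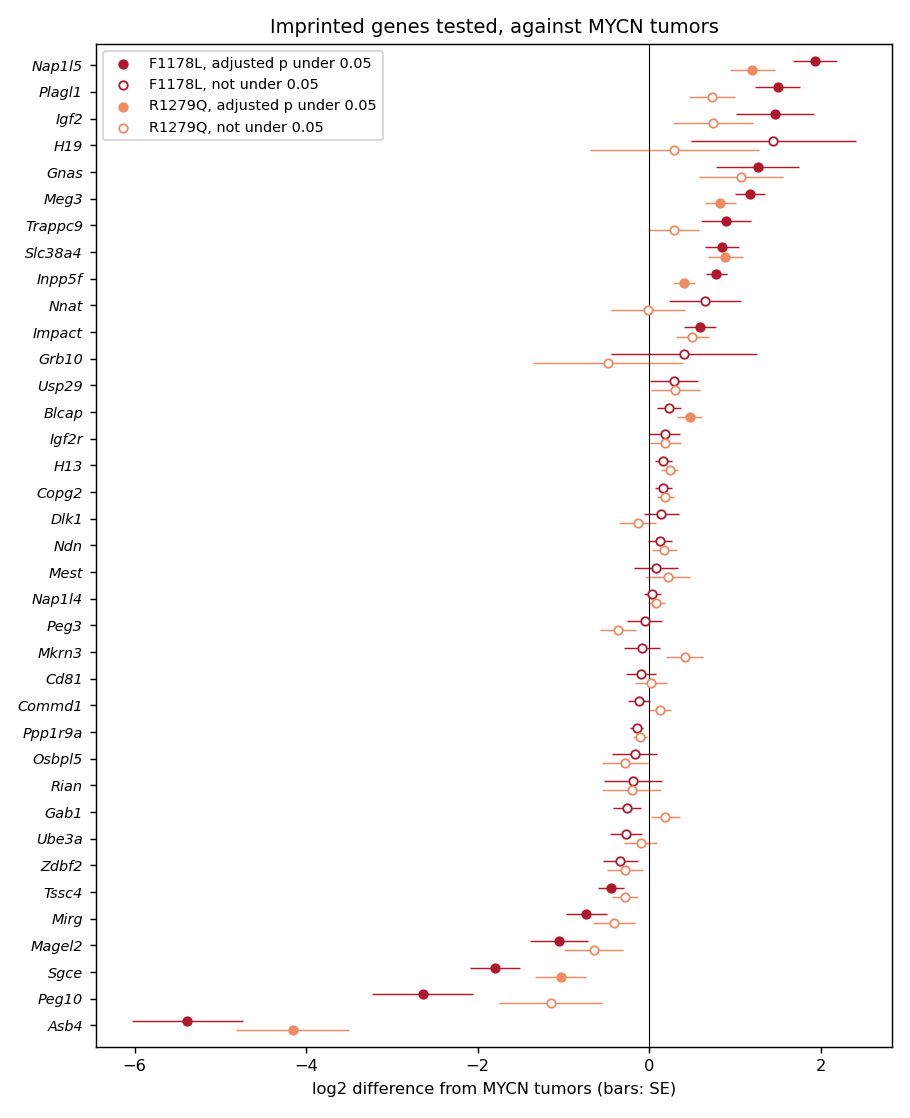
Fitted log2 difference from *MYCN* tumors (n = 10) of each of the 37 tested imprinted genes in F1178L (n = 11) and R1279Q (n = 10) tumors, with standard errors. Filled points passed an adjusted p of 0.05, which 15 members did in F1178L and 7 in R1279Q tumors, and *Asb4* lies farthest from 0 in both.

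The *Peg10* cluster on mouse chromosome 6 held the largest differences. *Asb4* encodes an ankyrin repeat and SOCS box protein, a substrate adaptor of ubiquitin ligases that is maternally expressed. Its log2 level was 2.38 in the lowest, 2.47 in the median and 2.55 in the highest F1178L tumor, against 4.36, 8.01 and 9.81 in *MYCN* tumors, so that the groups did not overlap and every F1178L tumor was below the limit of log2 4. In R1279Q tumors it was 2.45, 2.46, 2.47, 2.47, 2.50, 2.51 and 2.51 in 7 tumors, and 4.32, 6.11 and 9.14 in tumors 18, 13 and 9, which overlap the *MYCN* tumors. On means of 2.47 ± 0.05 (SD) in F1178L and 7.85 ± 1.52 in *MYCN* tumors, *Asb4* was at least 14.4-fold lower in F1178L, where values under log2 4 count as log2 4 (limma adjusted p = 2.18e-07). With a mean of 3.69 ± 2.26 in R1279Q tumors it was at least 8.55-fold lower than in *MYCN* tumors (adjusted p = 0.000101). The muscle gene *Ckm* was at 7.28 and 8.0 in R1279Q tumors 9 and 18 and at 2.70 in tumor 13. F1178L tumors 11 and 38, with *Ckm* at 9.75 and 7.72, had *Asb4* in the range of the other F1178L tumors. The *Asb4* calls in both genotypes were kept without the tumors with *Ckm* above log2 6. The part of muscle tissue in the *Asb4* levels of single tumors was not tested.

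*Peg10* and *Sgce*, paternally expressed genes of the same cluster as *Asb4*, share a control region. *Peg10* derives from a retrotransposon and is needed for the placenta. Its level was 2.51, 4.67 and 6.71 in the lowest, median and highest F1178L tumor, against 5.54, 7.16 and 7.74 in *MYCN* tumors. All 5 F1178L tumors under log2 4 were tumors 28 to 31 and 37. The 6 others lay between 4.67 and 6.71 and reached into the *MYCN* range. *Peg10* averaged 4.36 ± 1.55 in F1178L and 7.0 ± 0.66 in *MYCN* tumors, a log2 difference of -2.64 ± 0.59 (SE, adjusted p = 0.00057). R1279Q tumors ran from 2.47 in tumor 17 through a median of 6.27 to 7.86, with a mean of 5.85 ± 1.74 and a difference from *MYCN* tumors of -1.15 ± 0.60 (SE) that did not pass (adjusted p = 0.183).

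*Sgce* encodes epsilon-sarcoglycan, a membrane protein mutated in human myoclonus dystonia. It was at 8.64, 9.17 and 10.85 in the lowest, median and highest F1178L tumor, at 8.84, 10.52 and 11.15 in R1279Q tumors, and at 10.76, 11.36 and 12.63 in *MYCN* tumors. F1178L tumor 4 was the 1 F1178L tumor inside the *MYCN* range. The log2 difference from *MYCN* tumors was -1.80 ± 0.29 in F1178L (SE, adjusted p = 1.41e-05) and -1.03 ± 0.30 in R1279Q (adjusted p = 0.015). *Ppp1r9a*, which lies between *Peg10* and *Asb4* and encodes the actin-binding protein neurabin, averaged 8.62 in F1178L and 8.77 in *MYCN* tumors (adjusted p = 0.126). *Calcr*, the calcitonin receptor gene of the same cluster, stayed below log2 4.

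**Figure D2:**
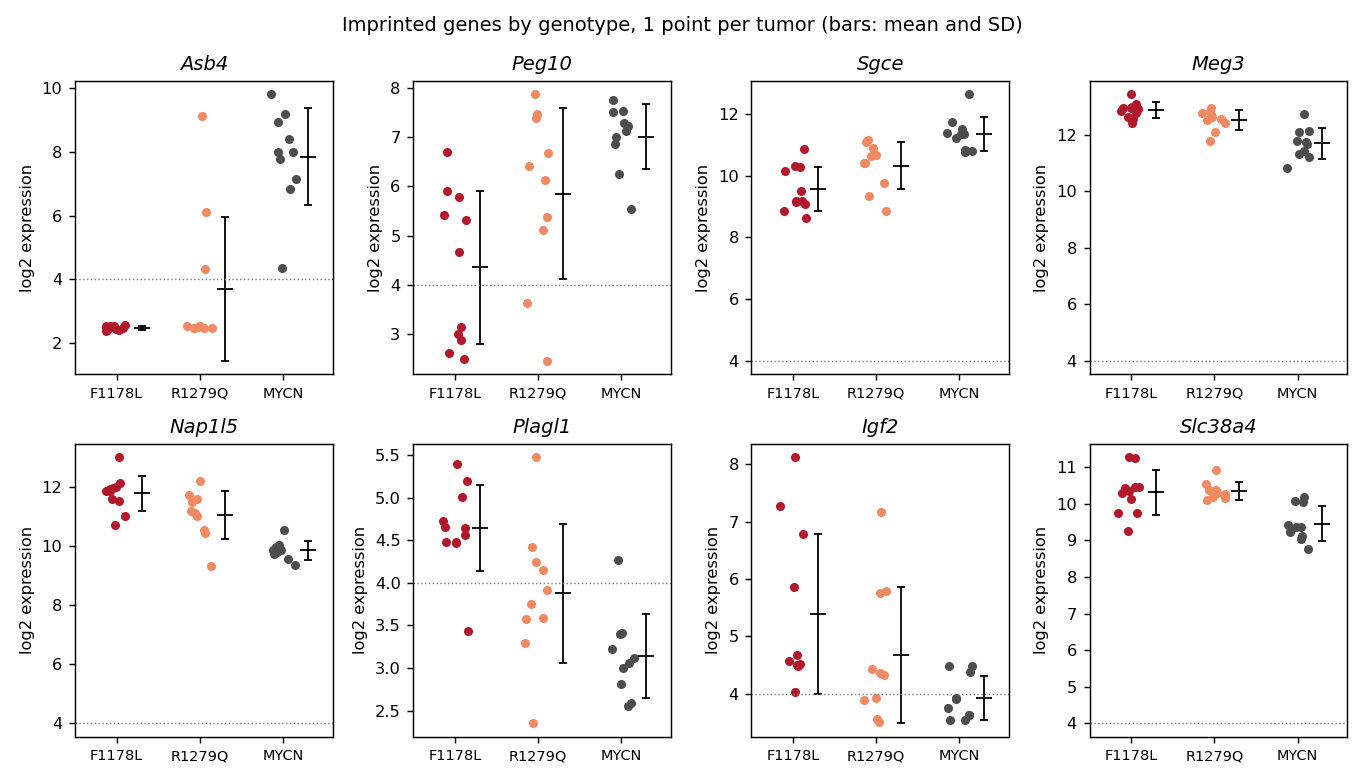
Deposited log2 level of 8 imprinted genes, 1 point per tumor, in F1178L (n = 11), R1279Q (n = 10) and *MYCN* (n = 10) tumors, with mean and SD. The dotted line is log2 4, under which all 11 F1178L tumors and 7 R1279Q tumors lie for *Asb4*.

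The *Dlk1*-*Meg3* cluster on chromosome 12 was among the most abundant and its maternally expressed RNAs moved apart. *Meg3*, a long noncoding RNA that acts as a growth suppressor, was at 12.41, 12.92 and 13.44 in the lowest, median and highest F1178L tumor, at 11.77, 12.59 and 12.94 in R1279Q tumors, and at 10.82, 11.72 and 12.73 in *MYCN* tumors. It was 2.25-fold higher in F1178L tumors (log2 difference 1.17 ± 0.17 SE, adjusted p = 4.93e-06) and higher by 0.83 ± 0.18 on the log2 scale in R1279Q tumors (adjusted p = 0.00191). *MYCN* tumor 26, at 12.73, lay above the median R1279Q tumor. *Mirg*, a noncoding RNA that hosts microRNAs downstream in the same cluster, was lower in F1178L, with a mean of 8.92 ± 0.68 against 9.65 ± 0.62 in *MYCN* tumors (log2 difference -0.73 ± 0.24 SE, adjusted p = 0.0121). In R1279Q tumors it averaged 9.24 ± 0.23, with a difference of -0.41 (adjusted p = 0.241). *Rian*, the host RNA of many small nucleolar RNAs between them, differed from *MYCN* tumors by -0.19 in F1178L (adjusted p = 0.666) and -0.20 in R1279Q. *Dlk1*, a paternally expressed ligand-like protein that marks chromaffin and progenitor cells, averaged 10.86 in F1178L and 10.71 in *MYCN* tumors (adjusted p = 0.596).

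*Igf2*, the fetal growth factor gene, and *H19*, the noncoding RNA beside it, were uneven among tumors. *Igf2* was at 4.03, 4.56 and 8.13 in the lowest, median and highest F1178L tumor, at 3.50, 4.33 and 7.16 in R1279Q tumors, and at 3.54, 3.83 and 4.48 in *MYCN* tumors. The F1178L tumors that stood above were 28 (8.13), 1 (7.27), 30 (6.78) and 36 (5.85), and the R1279Q tumors 8 (7.16), 18 (5.80) and 19 (5.76), while the other F1178L tumors lay between 4.03 and 4.67, around the top of the *MYCN* range, and the other R1279Q tumors between 3.50 and 4.43, overlapping the *MYCN* tumors. *Igf2* was at least 2.39-fold higher in F1178L tumors (adjusted p = 0.00981), though not when only F1178L tumors of 129B6F1 entered (adjusted p = 0.128), and in R1279Q tumors its log2 difference was 0.75 (adjusted p = 0.277). *H19* ran from 3.95 in F1178L tumor 37 through a median of 8.10 to 12.26 in tumor 1, and from 4.06 through 6.76 to 8.82 in *MYCN* tumors, with a difference of 1.45 ± 0.97 (SE, adjusted p = 0.224). In R1279Q tumors it ran from 3.29 through 7.53 to 10.57. *Ckm* was at 2.59 and 2.38 in F1178L tumors 1 and 28, the highest for *H19*. In the tumors with *Ckm* above log2 6, *H19* was at 9.15 and 8.90 in F1178L tumors 11 and 38. It was at 7.63 and 10.57 in R1279Q tumors 9 and 18, and at 8.82, 7.42 and 6.26 in *MYCN* tumors 3, 21 and 32. The part of muscle tissue in the *H19* levels was not tested. The 12 fibroblast and mesenchymal markers averaged 5.22 to 7.48 in F1178L, 4.34 to 6.83 in R1279Q and 4.87 to 6.33 in *MYCN* tumors. Where *Igf2* stood above, they averaged 6.98, 6.22, 6.44 and 6.46 in F1178L tumors 1, 28, 30 and 36. In R1279Q tumors 8, 18 and 19 they averaged 6.83, 5.81 and 6.54. They averaged 7.48 in F1178L tumor 31 and 6.61 in R1279Q tumor 5, where *Igf2* was at 4.49 and 4.43. Of the 8 of these markers that were tested, 3 were higher in F1178L than in *MYCN* tumors, beside 20.1% of all tested rows. Their part in the *Igf2* levels was not tested.

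Of 3 further members that regulate growth or its receptors, *Plagl1* passed in F1178L tumors and *Igf2r* and *Grb10* did not. *Plagl1*, a paternally expressed zinc finger factor that regulates other imprinted genes, was at 3.43, 4.64 and 5.40 in the lowest, median and highest F1178L tumor, against 2.55, 3.09 and 4.26 in *MYCN* tumors. It was at least 1.53-fold higher in F1178L (adjusted p = 3.95e-05), while R1279Q tumors, at 2.35 to 5.48, differed from *MYCN* tumors by 0.73 ± 0.27 (SE, adjusted p = 0.0539). *Igf2r*, the maternally expressed receptor that clears IGF2, differed from *MYCN* tumors by 0.18 in F1178L (adjusted p = 0.425). *Grb10*, an adaptor that dampens insulin and IGF receptor signaling, was split within each genotype. It lay under log2 4 in F1178L tumors 11 and 2, R1279Q tumors 9, 5 and 8 and *MYCN* tumor 25, and reached 8.46, 8.47 and 8.6 in the highest F1178L, R1279Q and *MYCN* tumor. Its differences from *MYCN* tumors were 0.41 in F1178L (adjusted p = 0.722) and -0.48 in R1279Q (adjusted p = 0.742).

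Among the genes of the *Snrpn* cluster on chromosome 7, *Ndn*, which encodes the neuronal growth suppressor necdin, was the most abundant, at 13.29 to 14.83 in F1178L, 13.79 to 14.51 in R1279Q and 13.33 to 14.30 in *MYCN* tumors, and did not pass (adjusted p = 0.494 for F1178L against *MYCN*). *Magel2*, a paternally expressed ubiquitin ligase regulator beside it, was at 7.89, 9.06 and 9.94 in the lowest, median and highest F1178L tumor, against 9.20, 9.83 and 11.13 in *MYCN* tumors, a log2 difference of -1.05 ± 0.34 (SE, adjusted p = 0.0127). The groups overlapped between 9.20 and 9.94, and the call was lost without the *Ckm*-high tumors, as were those of *Mirg* and *Tssc4*. In R1279Q tumors, at 8.01 to 10.62, its difference was -0.65 (adjusted p = 0.196). *Ube3a*, the ubiquitin ligase gene of Angelman syndrome, and *Mkrn3* did not pass in either genotype. In the *Kcnq1* cluster on the same chromosome *Tssc4*, which encodes a splicing factor, averaged 7.43 ± 0.42 in F1178L and 7.88 ± 0.37 in *MYCN* tumors (log2 difference -0.45 ± 0.15 SE, adjusted p = 0.0147), and *Cd81*, *Osbpl5* and *Nap1l4* did not pass.

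*Nap1l5*, *Slc38a4*, *Inpp5f* and *Impact* were higher in F1178L tumors, and all but *Impact* also in R1279Q tumors. *Nap1l5*, a paternally expressed retrogene for a nucleosome assembly protein, was at 10.71, 11.88 and 13.01 in the lowest, median and highest F1178L tumor, against 9.36, 9.86 and 10.55 in *MYCN* tumors, with no overlap. R1279Q tumors lay between 9.32 (tumor 24) and 12.21, with a median of 11.14. The log2 difference from *MYCN* tumors was 1.93 ± 0.26 in F1178L (SE, adjusted p = 1.01e-06) and 1.20 ± 0.26 in R1279Q (adjusted p = 0.00217). *Slc38a4*, a neutral amino acid transporter of placenta and liver, was at 9.26, 10.35 and 11.27 in F1178L, at 10.09, 10.28 and 10.92 in R1279Q and at 8.76, 9.35 and 10.18 in *MYCN* tumors. It was higher by 0.85 ± 0.20 in F1178L (SE, adjusted p = 0.00112) and by 0.89 ± 0.21 in R1279Q (adjusted p = 0.00349), and the groups overlapped. *Inpp5f*, an inositol phosphatase gene, was higher by 0.78 ± 0.12 in F1178L (adjusted p = 9.99e-06) and by 0.41 ± 0.13 in R1279Q (adjusted p = 0.0229). *Impact*, a regulator of translation under stress, was higher by 0.59 ± 0.19 in F1178L (adjusted p = 0.0114), with 9.16 on average and a difference of 0.50 in R1279Q tumors (adjusted p = 0.0662).

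*Gnas*, which encodes the stimulatory G protein subunit and, from other promoters, proteins of neuroendocrine granules, was at 7.26, 9.77 and 11.46 in the lowest, median and highest F1178L tumor, against 7.92, 8.26 and 9.11 in *MYCN* tumors. Its log2 difference was 1.26 ± 0.48 (SE, adjusted p = 0.0311), the F1178L tumors reaching below and above the *MYCN* range, and the call was lost without F1178L tumor 4, 11, 28, 31 or 36 (adjusted p of at most 0.0646). In R1279Q tumors, at 7.78 to 11.81, the difference was 1.07 (adjusted p = 0.125). *Trappc9*, a trafficking gene, averaged 5.34 ± 0.81 in F1178L and 4.44 ± 0.28 in *MYCN* tumors (log2 difference 0.89 ± 0.29 SE, adjusted p = 0.0129). *Blcap*, the host gene of *Nnat*, averaged 7.72 ± 0.27 in R1279Q and 7.25 ± 0.15 in *MYCN* tumors (log2 difference 0.47 ± 0.15 SE, adjusted p = 0.0226). *Peg3*, *Usp29*, *Mest*, *Copg2*, *Zdbf2*, *H13*, *Commd1* and *Gab1* passed in neither genotype.

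Markers of blood vessels and macrophages were lower in F1178L tumors over the same groups. Of the 9 endothelial and mural markers tested 7 were lower than in *MYCN* tumors and 0 higher, and of 10 macrophage markers 8 were lower and 0 higher. In R1279Q tumors 5 of 9 and 1 of 10 were lower. Over all tested rows 26.4% were lower and 20.1% higher in F1178L, and 7.04% lower and 10.8% higher in R1279Q tumors. Averaged over its 15 rows, the endothelial and mural list lay between 3.93 and 5.03 in F1178L, between 3.66 and 6.61 in R1279Q and between 4.7 and 6.0 in *MYCN* tumors. The macrophage list, over 12 rows, lay between 5.62 and 7.06 in F1178L, between 6.07 and 7.93 in R1279Q and between 6.42 and 7.82 in *MYCN* tumors. Sympathetic neuroblast markers were higher, 8 of 13 in F1178L and 6 of 13 in R1279Q tumors, with 0 lower, and chromaffin markers were higher for 6 of 8 and 3 of 8. Both lists hold *Chga*, *Chgb* and *Dbh*, so that their counts overlap. Of 3 Schwann cell and precursor markers tested 2 were higher in F1178L and 1 in R1279Q tumors, with *Fabp7* at log2 differences of 4.34 and 3.20. The 1 erythroid marker tested, *Alas2*, was lower, by -3.30 in F1178L and -4.03 in R1279Q tumors. The part of these lists in the levels of imprinted genes was not tested.

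Set against each other, F1178L and R1279Q tumors differed in 0 of 37 members by limma, beside 2.83% of all rows that were higher in F1178L and 5.7% that were lower. At an unadjusted p under 0.05 there were 8 members. That count is given without the share over all rows and was not read as particular to imprinted genes. A plain test of each row between the same tumors, with the same adjustment, also gave 0 members. Closest to the threshold were *Inpp5f* (log2 difference 0.38, adjusted p = 0.0514), *Plagl1* (0.76, adjusted p = 0.0609) and *Nap1l5* (0.73, adjusted p = 0.0693), which were higher in F1178L, and *Gab1* (-0.45, adjusted p = 0.0765), *Sgce* (-0.77, adjusted p = 0.0865) and *Peg10* (-1.49, adjusted p = 0.0984), which were lower. The members called in F1178L and not in R1279Q tumors were therefore not shown to differ between the mutations.

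Within the 129S2 background alone, 4 F1178L against 5 R1279Q tumors, 7 members passed, 3 higher (*Nnat*, *Inpp5f* and *Plagl1*) and 4 lower (*Peg10*, *Sgce*, *Commd1* and *Mkrn3*), beside 11.6% of all rows higher and 16.4% lower. *Nnat*, a paternally expressed proteolipid of developing neurons, was at 10.47, 10.95, 11.35 and 11.60 in the F1178L tumors, and between 8.29 and 9.24 in the R1279Q tumors. The groups were apart by more than a log2 unit, with a difference of 2.22 ± 0.26 (SE, adjusted p = 0.0019). *Peg10* was at 2.62, 2.88, 3.02 and 3.15 in the F1178L tumors, all below the limit of log2 4, and between 3.65 and 7.86 in the R1279Q tumors, at least 5.12-fold lower in F1178L (adjusted p = 0.0102). *Sgce* was lower by the log2 difference -1.47 ± 0.33 (SE, adjusted p = 0.0124), and *Plagl1* was at least 1.6-fold higher (adjusted p = 0.0252). The R1279Q tumors here came from older mice that were all male, and the F1178L tumors from younger mice of which 2 were male, so that mutation, age and sex cannot be told apart. Within 129B6F1, 6 F1178L against 3 R1279Q tumors, 0 members passed, as did 0 of all rows. A test of whether the background effect differed between the mutations passed in 0 of 37 members and in 0.0751% of all rows. At an unadjusted p under 0.05 it gave 4 members, a count again without the share over all rows. *Nnat* came closest, with a difference between its background effects of -2.83 ± 0.68 (SE, adjusted p = 0.0952).

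Between backgrounds, with the mutation in the model, 1 of 37 members passed. *Grb10* was lower in 129B6F1, beside 3.41% of all rows that were lower and 1.58% that were higher. Its level was 2.75, 3.39 and 8.46 in the lowest, median and highest of 9 tumors in 129B6F1, and 5.50, 7.53 and 8.32 in the 9 tumors in 129S2. The fitted log2 difference was -3.00 ± 0.72 (SE, adjusted p = 0.0291). All 3 R1279Q tumors in 129B6F1 were under log2 4, at 2.76, 2.95 and 3.39, against 5.50 to 7.53 in the 5 R1279Q tumors in 129S2, at least 7.98-fold lower (adjusted p = 0.014). In F1178L tumors of 129B6F1, *Grb10* was low in tumors 11 (2.75) and 2 (2.96), at 5.68 in tumor 1, and at 7.63 to 8.46 in the other 3, against 7.95 to 8.32 in 129S2 (difference -2.25, adjusted p = 0.25). With age as a further covariate the difference was -1.37 (adjusted p = 0.802), and background and age cannot be told apart in these tumors. The call was also lost without R1279Q tumor 8 or F1178L tumor 28, 29 or 30.

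No maternally expressed and no paternally expressed member passed between backgrounds, and the median log2 difference was -0.08 for the 15 maternally, -0.11 for the 18 paternally expressed members and -0.02 over all rows. *Rian* came closest, with 12.10 ± 1.10 in 129B6F1 and 13.24 ± 0.30 in 129S2 (difference -1.20 ± 0.37 SE, adjusted p = 0.0641). It was lowest in F1178L tumors 2 (10.83) and 4 (10.95) and in R1279Q tumors 8 (11.15) and 5 (11.20), all of 129B6F1. *H19* averaged 6.61 ± 3.06 in 129B6F1 and 8.59 ± 2.03 in 129S2 (difference -2.37, adjusted p = 0.208), and the tumors of both backgrounds overlapped. *Nnat* differed by -0.83 (adjusted p = 0.293) and *Peg10* by 1.04 (adjusted p = 0.342).

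**Figure D3:**
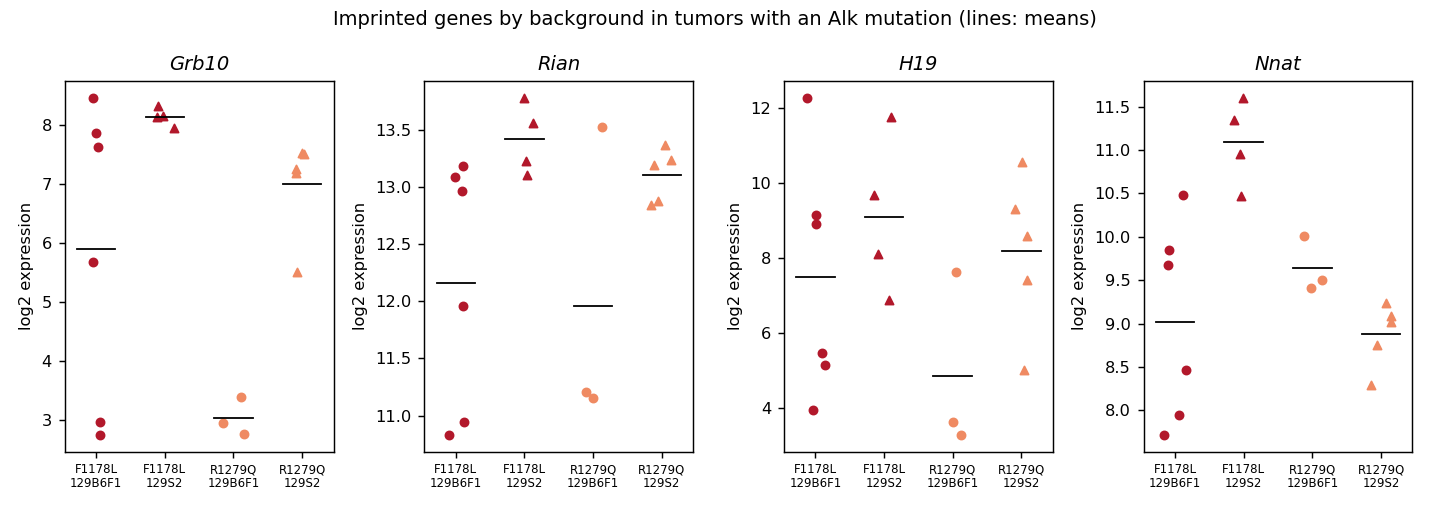
Deposited log2 level of *Grb10*, *Rian*, *H19* and *Nnat*, 1 point per tumor, in F1178L tumors of 129B6F1 (n = 6) and 129S2 (n = 4) and R1279Q tumors of 129B6F1 (n = 3) and 129S2 (n = 5), with lines at the means. For *Grb10* the 3 R1279Q tumors of 129B6F1 lie under log2 4 and all 9 tumors of 129S2 above it.

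Copy number changes that the study called on the chromosomes of these genes by array-CGH, a count of DNA copies, went with levels on either side of those in other tumors. Changes were matched to genes by chromosome alone, so that a change of part of a chromosome need not include the gene. With a gain of chromosome 12, *Rian* was at 10.83 in F1178L tumor 2 and at 11.15 in R1279Q tumor 8, below the means of 12.90 and 12.87 of the other tumors of each genotype, and it was as low in tumors 4 and 5, which had no change there. *Grb10* was at 5.68 in F1178L tumor 1 and at 2.76 in R1279Q tumor 9, each with a gain on chromosome 11. *Gnas* was at 11.81 in R1279Q tumor 9, which had a gain on chromosome 2, against 9.14 on average in the other R1279Q tumors. *Trappc9* was at 3.70 in F1178L tumor 38, which had a loss on chromosome 15, against 5.50 on average in the other F1178L tumors. In R1279Q tumor 5, with a partial loss of that chromosome listed as 15qE2-, it was at 5.80, against 4.61 in the other R1279Q tumors. Whether that partial loss includes *Trappc9* was not examined. *Igf2r* was at 7.51 in F1178L tumor 4, which had a gain of chromosome 17 and was the lowest F1178L tumor for this gene.

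Several imprinted genes varied widely among tumors of a single genotype. The median SD within genotypes was 0.49 over the 37 members and 0.38 over all tested rows. *H19* had an SD of 2.31, above 99.8% of tested rows, *Grb10* 2.05 (99.6%), *Asb4* 1.55 (98.7%), *Peg10* 1.40 (98%), *Gnas* 1.15 (96%), *Igf2* 1.09 (95.5%) and *Nnat* 1.0 (93.9%). At the other end *Ppp1r9a*, with an SD of 0.16, varied less than nearly all rows, and *Copg2*, *Nap1l4* and *H13* had an SD of 0.21 each. Both maternally and paternally expressed genes are among the variable members, and *Igf2* and *H19*, as well as *Asb4* and *Peg10*, belong to the same cluster.

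Members of the same cluster, and *Plagl1* with *Igf2*, *H19* and *Dlk1*, were compared tumor by tumor within each genotype. These were 13 pairs and 39 relations in all, each with a two-sided permutation test. *Peg10* and *Sgce* went together in R1279Q tumors, with Pearson's r = 0.95 (permutation p = 9e-05, adjusted 0.00351) and Spearman's rho = 0.88 (permutation p = 0.00181, adjusted 0.0335), and r = 0.80 without the 2 tumors farthest from the median. In F1178L tumors r was 0.76 (permutation p = 0.0099, adjusted 0.0643), rho 0.74 (permutation p = 0.0129, adjusted 0.0964) and r without 2 tumors 0.65, and in *MYCN* tumors r was 0.40 (permutation p = 0.242, adjusted 0.524), rho 0.27 and r without 2 tumors -0.22. Both genes were lowest in the same tumor of each genotype, F1178L 37, R1279Q 17 and *MYCN* 22. Kidney markers averaged 9.68 in *MYCN* tumor 22.

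*Ndn* and *Magel2* went together in both mutant genotypes. In F1178L tumors r was 0.78 (permutation p = 0.00248, adjusted 0.025) and rho 0.92 (permutation p = 0.00019, adjusted 0.00741), with r = 0.88 without 2 tumors and 0.89 within the 6 tumors of 129B6F1. In R1279Q tumors r was 0.84 (permutation p = 0.00288, adjusted 0.025) and rho 0.85 (permutation p = 0.00258, adjusted 0.0335), with r = 0.75 without 2 tumors. In *MYCN* tumors r was 0.08 (permutation p = 0.832, adjusted 0.916) and rho -0.18. *Igf2* and *H19*, of which 1 is paternally and 1 maternally expressed, went together in F1178L tumors by r = 0.82 (permutation p = 0.00161, adjusted 0.025). Their rho of 0.68 did not pass (permutation p = 0.0247, adjusted 0.12), and r was 0.60 without 2 tumors, so that the relation rests in part on those. In R1279Q tumors r was 0.02 (permutation p = 0.953) and in *MYCN* tumors 0.38. *Rian* and *Mirg* went together in *MYCN* tumors by r = 0.83 (permutation p = 0.00321, adjusted 0.025) and by rho = 0.78 (permutation p = 0.0102, adjusted 0.0964), while r was 0.46 in F1178L and -0.63 in R1279Q tumors. No other relation of the 39 had an adjusted p under 0.05 by Pearson's r, differences between genotypes were not tested, and the groups of a single mutation and background other than F1178L in 129B6F1 held fewer than 6 tumors.

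**Figure D4:**
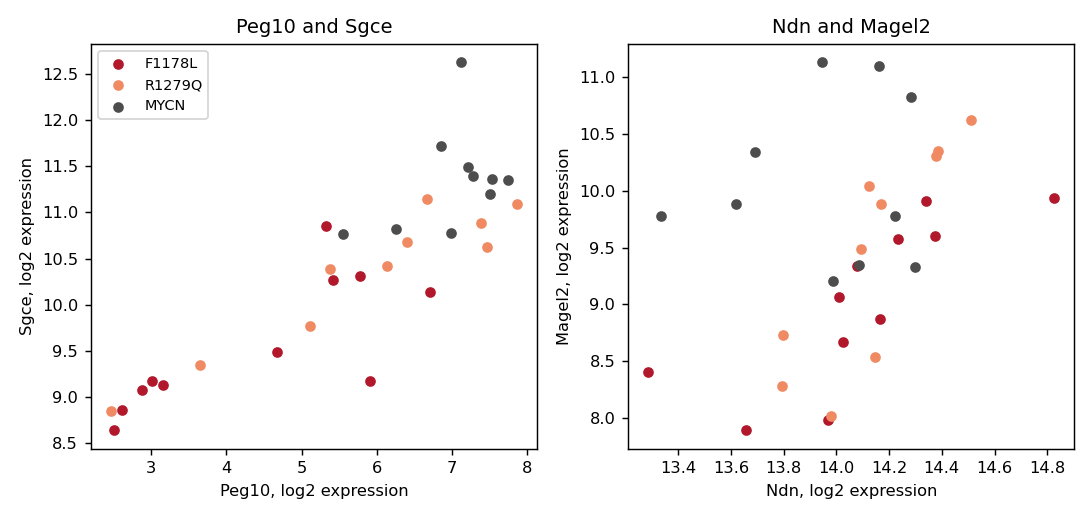
Log2 level of *Peg10* against *Sgce* and of *Ndn* against *Magel2*, 1 point per tumor, for F1178L (n = 11), R1279Q (n = 10) and *MYCN* (n = 10) tumors. R1279Q tumors rise along both axes for *Peg10* and *Sgce* (r = 0.95), and the *MYCN* tumors do not line up for *Ndn* and *Magel2* (r = 0.08).

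Genes that set or keep imprints were mostly lower in F1178L tumors. A list of 19, among them DNA methyltransferases and partners of KRAB zinc finger proteins, had 14 tested. Of these, 10 were lower than in *MYCN* tumors and 1 (*Kdm1b*) was higher, beside 26.4% and 20.1% of all tested rows. Their median log2 difference was -0.49. In R1279Q tumors 2 were lower and 1 higher, beside 7.04% and 10.8% of all rows, with a median of -0.27. The higher gene there was *Zfp445*, with a log2 difference of 0.26 (adjusted p = 0.0398), against 0.14 in F1178L tumors (adjusted p = 0.204). *Trim28*, the corepressor that holds methylation at imprinted control regions, was lower by the log2 difference -0.63 in F1178L (adjusted p = 0.000231) and by -0.41 in R1279Q tumors. *Ctcf*, the insulator protein of the *Igf2*-*H19* control region, was lower by -0.62 in F1178L (adjusted p = 0.000348) and by -0.39 in R1279Q tumors. *Dnmt1*, the maintenance methyltransferase, which also goes with DNA replication, was lower by -0.51 in F1178L (adjusted p = 0.0114). *Zfp57* itself stayed under log2 4 in every tumor, at 2.26 to 3.13 in F1178L, 2.27 to 2.77 in R1279Q and 2.21 to 2.94 in *MYCN* tumors. Between F1178L and R1279Q tumors 2 of the 14 were lower and 0 higher, beside 5.7% and 2.83% of all rows. Between backgrounds 1 was lower, beside 3.41% of all rows.

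Of the genes that bind IGF2 or relay its signal, 9 were tested. In F1178L tumors 3 were higher than in *MYCN* tumors, *Igf2bp3* (log2 difference 2.38, adjusted p = 0.00621), whose protein binds *Igf2* mRNA, *Irs2* (1.79, adjusted p = 2.01e-05), an adaptor of the receptor, and *Igf1r* (0.93, adjusted p = 0.00199), the receptor itself. A pair of carrier protein genes were lower, among them *Igfbp2* (-1.94, adjusted p = 0.000359). In R1279Q tumors 1 of the 9 was higher (*Igf2bp3*) and 1 lower (*Igfbp2*), and *Irs2* was higher in F1178L than in R1279Q tumors by 1.01 on the log2 scale. A further list of 39 imprinted genes outside the members had 16 tested, of which 7 were higher and 1 lower in F1178L and 5 higher and 1 lower in R1279Q tumors. The same shares of all rows stand beside these counts, which were not read as particular to imprinted genes. *Th*, *Ddc* and *Dcn*, which were higher in F1178L, also stand in the lists of sympathetic neuroblast or fibroblast markers. Its largest differences in F1178L were *Th*, higher by 2.52, and *Dcn*, a fibroblast gene, higher by 2.08.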

How the data were processed

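RNA of 31 tumors was hybridized to Affymetrix mouse arrays, 1 per tumor. The authors normalized them by GCRMA, which corrects background by probe sequence, with Brainarray annotation, and deposited log2 values, which were used as they stand. The values ran from 1.31 to 15.46. Symbols were given to 16464 of the 17306 rows, and 842 stayed unnamed. Arrays give no counts, so the number of tumors limits the precision. limma 3.58.1 in R 4.3.3 fitted the 3 genotypes together over 9322 rows that exceeded log2 4 in no fewer than 10 tumors, which a gene high only in *MYCN* tumors needs all 10 to pass. A second model held mutation and background in 18 tumors. Tests were two-sided with Benjamini-Hochberg adjustment over all rows and a threshold of 0.05. Where the lower mean was under log2 4, values under it were set to 4 and the fold change is a lower bound. Correlations used 1e+05 permutations. The fit was tested on simulated data. Any member could be named, with values per tumor for members called with a log2 change of at least 1, and other genes only from lists or where a result turns on them. Members and lists were chosen with earlier results of these data known. Alternatives covered the filter, normalization, array weights, moderation, Student's test of the methods, background, sex, age, copy number and left-out tumors. Those without *MYCN* tumor 22 or the *Ckm*-high tumors were added after seeing the data.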

Additional observations from a re-analysis of the deposited data

Results flagged for a closer look

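A tumor stood far from the rest of its group in 12 of 148 combinations of 37 members and 4 groups (R1279Q, 129B6F1, 129S2 and *MYCN*). The cutoff flags about 1 in 20 among independent normal values. Here R1279Q and the backgrounds share tumors, and each background holds both mutations. The share over all rows was not computed, so that the count was not read as particular to imprinted genes. R1279Q tumor 9, of 129B6F1, was high for *Asb4*, at 9.14 against 2.41 to 2.55 in the other tumors of that background, and for *Peg3*, at 11.39 against 9.11 to 10.11. *MYCN* tumor 3 stood apart 3 times, for *Plagl1* at 4.26 (others 2.55 to 3.41), for *Sgce* at 12.63 (others 10.76 to 11.72) and for *Igf2r* at 7.71 (others 8.30 to 8.87). F1178L tumor 29, of 129S2, was low for *Dlk1*, at 9.71 against 10.49 to 11.19, and high for *Meg3*, at 13.44 against 12.56 to 12.95, which are neighbors in 1 cluster. *Mirg* was low in F1178L tumor 4, at 7.34 against 8.63 to 9.52 in the other tumors of 129B6F1. *Grb10* was at 5.50 in R1279Q tumor 14, against 7.19 to 8.32 in the other tumors of 129S2. Among R1279Q tumors *Ppp1r9a* was at 8.20 in tumor 24 (others 8.57 to 8.87), *Copg2* at 7.94 in tumor 5 (others 8.45 to 8.93) and *Slc38a4* at 10.92 in tumor 8 (others 10.09 to 10.53).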

How the results depend on the processing

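No paired analysis was possible because the tumor numbers are not shared between genotypes. No called member changed its direction under the alternatives run. The median over all rows, near 0 throughout, changed sign under some of them: among others it was 0.04 without a filter and 0.03 with equal array medians between backgrounds, and 0.03 with equal array medians in R1279Q against *MYCN* tumors. In F1178L against R1279Q tumors 33.2% of the calls over all rows were higher in F1178L, and 55% with background and sex as covariates. In F1178L against *MYCN* tumors, 15 members and 4333 of all rows passed, with 9 members and 2207 rows when only mutant tumors of 129B6F1 entered and 14 to 16 with each tumor left out in turn. In R1279Q against *MYCN* tumors, 7 members and 1667 rows passed, with 13 members and 3479 rows under array weights, 2 members and 683 rows with mutant tumors of 129B6F1 only and 6 to 8 with each tumor left out. In F1178L against R1279Q tumors, 0 members and 795 rows passed, with 1 member under a filter at log2 6, 1 under trended and robust moderation, 1 without the *Ckm*-high tumors, 10 members and 3042 rows under array weights, 7 members and 2609 rows within 129S2, and 0 to 4 members with each tumor left out (4 without F1178L tumor 4 or R1279Q tumor 17, and above 0 also without F1178L tumor 1, 2, 11 or 38, R1279Q tumor 5, 9 or 14, or *MYCN* tumor 22, 26 or 33). Between backgrounds, 1 passed, with 0 under no filter, Student's test of the methods, sex or age as a covariate or within F1178L, 2 under array weights (*Grb10* and *Rian*), 3 without the *Ckm*-high tumors (*Grb10*, *Rian* and *Peg3*), and 0 to 3 with each tumor left out (0 without R1279Q tumor 8 or F1178L tumor 28, 29 or 30, 3 without R1279Q tumor 9, 2 without F1178L tumor 37). The fitted *Grb10* difference ran from -3.96 to -1.37. Of the background calls over all rows, 31.6% were higher in 129B6F1 in the fit reported, 42.6% with equal array medians, 39.1% with quantile normalization, 44.2% without a filter and 43.5% by Student's test. The cause of these changes was not tested, beyond the fewer tumors in the subsets.

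Calls of *Asb4*, *Peg10*, *Sgce*, *Meg3*, *Nap1l5*, *Inpp5f*, *Plagl1* and *Slc38a4* in F1178L against *MYCN* tumors were kept under each alternative that tested them and each left-out tumor. The alternatives with mutant tumors of a single background still used all *MYCN* tumors, of unknown background and age. They could therefore not match background or age between the groups. In F1178L tumors of 129B6F1 only, *Igf2* (log2 difference 1.0, adjusted p = 0.128), *Gnas*, *Trappc9*, *Mirg*, *Magel2* and *Tssc4* lost theirs, and the last 3 also without the *Ckm*-high tumors. *Impact* and *Mirg* lost theirs with F1178L tumors of 129S2 only, and *Gnas* also without a filter. In R1279Q against *MYCN* tumors *Nap1l5* kept its call throughout. *Asb4*, *Meg3* and *Slc38a4* lost theirs with R1279Q tumors of 129B6F1 only, *Sgce* and *Inpp5f* in either background alone, and *Inpp5f* also without the *Ckm*-high tumors or without *MYCN* tumor 33, and *Blcap* without R1279Q tumor 5. Signal near background limits *Igf2*, *Plagl1* and *Trappc9*.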
